A study of Mus musculus with 2 samples.

Results

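The 10 genes described here encode the ligand, receptors and signal carriers of the TGF-β pathway: *Tgfb1*, *Lrrc32*, *Tgfbr1*, *Tgfbr2*, *Smad2*, *Smad3*, *Smad4*, *Smad7*, *Ski* and *Skil*. They were chosen by gene symbol, and all 10 were found among the 23282 gene rows of the deposited count tables. There were 2 libraries, both of Th17 cells: 1 from control cells and 1 from cells given RV-Cre. In both, naïve CD4 T cells came from spleens of *Fak* fl/fl mice, and the study took such cells from females aged 6 to 8 weeks. Fak fl/fl means that part of the focal adhesion kinase gene, listed as *Ptk2*, is flanked by sites that Cre recombinase cuts. The cells were activated for 20 to 24 h and given either the empty retrovirus or the retrovirus that carries Cre, each with a GFP marker. For the control cells the label of genotype says WT and the title says *Fak* fl/fl with the empty virus, and the title was followed. Both cultures received the same stimulation, plate-bound anti-CD3ε at 10 μg/ml with anti-CD28 at 5 μg/ml, and the same Th17 mixture for 3 days. This mixture held IL-6 (50 ng/ml), human TGFβ1 (1 ng/ml), TNF (1 ng/ml) and IL-1β (2 ng/ml), with antibodies to IFNγ and IL-4 at 5 μg/ml each. GFP+ cells were then sorted. The number of mice behind each library is not given in the sources used here. Cre and the loss of *Fak* came together in the RV-Cre library, so they cannot be told apart.

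TGF-β is secreted as a latent complex, which GARP, the product of *Lrrc32*, anchors to the cell surface. The freed ligand binds the type II receptor TGFBR2, which activates the type I receptor TGFBR1. TGFBR1 phosphorylates SMAD2 and SMAD3, and these join SMAD4 and enter the nucleus. SMAD7 blocks the receptor step, while SKI and SKIL (SnoN) hold SMAD target genes repressed. In CD4 T cells the same ligand takes part in the choice between the Th17 program, when IL-6 is present, and the FOXP3-led Treg program.

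The libraries held 13799264 counted reads (control) and 12305010 counted reads (RV-Cre). They were made with a QuantSeq 3′ kit, whose reads come from the 3′ ends of transcripts. Levels are therefore given as CPM (the reads of a gene per 1000000 counted reads) without division by length. For ratios, counts were scaled by the TMM method. A gene passed the expression minimum when its log2(normalized count + 1) reached 4 in at least 1 library. It was called higher or lower at a ratio of 2 or more between these values, with the 1 added. In the text, log2 ratios include the added 1 and plain ratios do not. With 1 library per condition there was no test and no replicate check. The intervals given are exact 95% intervals that cover counting error only, and they compare these 2 libraries, not the conditions. The ribosomal RNA gene *Rn45s* took 8.50% of the control reads and 14.6% of the RV-Cre reads, and its part in the results was not tested beyond leaving it out of the totals. *Ptk2*, which overlaps 4 other annotated genes, drew 110 control reads against 31 RV-Cre reads, a ratio after scaling of 0.318 (0.206 to 0.477). Of the 8 T cell markers, 7 were listed and all 7 had reads, with summed levels of 1397 CPM (control) and 1983 CPM (RV-Cre). The 5 Th17 markers summed to 152 CPM and 53.1 CPM, and of the 4 past the minimum, 3 were lower by 2-fold or more after RV-Cre, among them the cytokine genes *Il17a* and *Il17f*. The summed levels of markers of other cells were higher in the RV-Cre library, though single markers went both ways. The sums (control, then RV-Cre) were 3.04 and 8.78 CPM for 4 B cell markers and 8.84 and 16.8 CPM for 6 myeloid markers. Among the myeloid markers *Csf1r* was higher, with 16 and 110 reads, and *Lyz2* was lower, with 22 and 7 reads. The 4 CD8 T and NK markers summed to 33.0 and 70.1 CPM, most of it *Cd8a* (23.3 and 47.1 CPM). *Adgre1* and *Ncr1* were at 0 in the control library, and *Klrb1c* was at 0 in the RV-Cre library.

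All 10 genes passed the expression minimum. A pair of genes stood apart: *Smad7*, which encodes the inhibitory SMAD, and *Lrrc32*, which encodes the TGF-β anchor GARP, were higher in the RV-Cre library, with normalized ratios of 4.11 and 4.19. The remaining 8 genes, among them both receptors, all 3 signal-carrying SMADs and both corepressors, had ratios between 0.727 (*Smad2*) and 1.23 (*Smad4*). By the 2-fold rule, 2 of the 10 genes were thus called higher and 0 lower. Of the 12112 genes past the minimum, 14.2% were called higher and 12.3% lower, 26.5% in all. Scaling to *Gapdh* instead moved the median of all genes by 0.44 on the log2 scale and gave 2959 higher and 778 lower genes. The count for the 10 genes lies close to that background. The median log2 ratio of the 10 genes was 0.08, beside -0.01 over all genes past the minimum. Among the 6276 more abundant genes (mean log2 value 8 or more), the range that holds 8 of the 10 genes, 3.74% were called higher and 7.6% lower, 11.3% in all. A normalized ratio as large as that of *Smad7* was found for 5.61% of all genes past the minimum and for 0.351% of these more abundant genes. Genes with 0 control reads have no such ratio and were not counted as reaching it. *Lrrc32*, with a mean log2 value of 6.77, lies below the more abundant range. The 0.351% therefore does not apply to it, and ratios of this size were more common among less abundant genes.

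**Figure D1:**
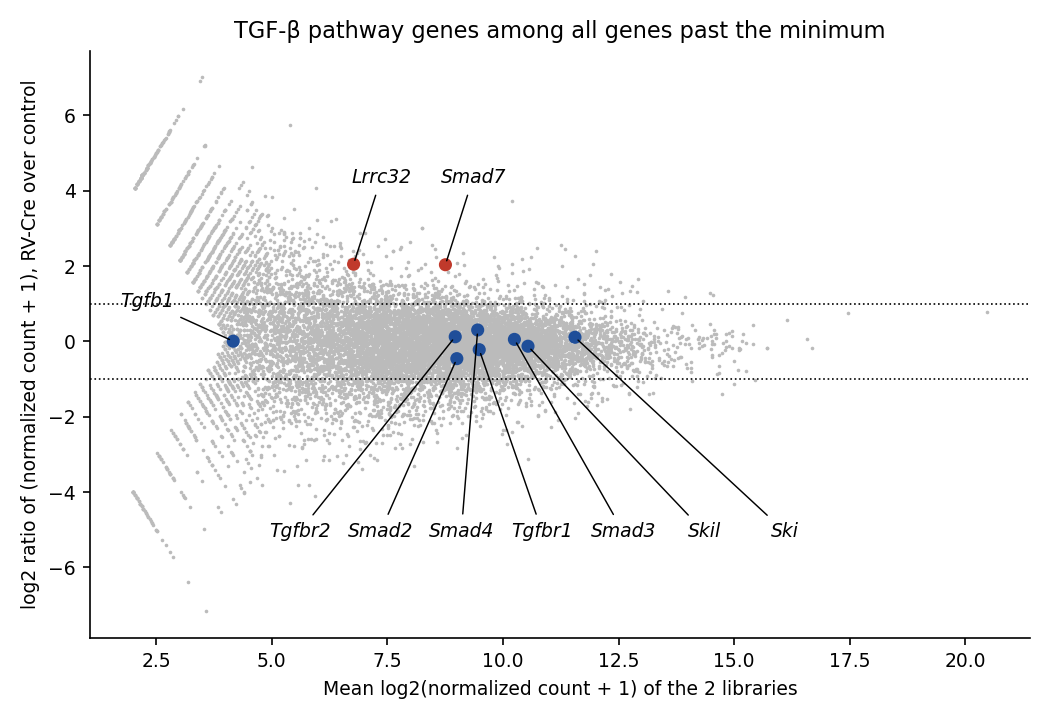
The log2 ratio of (normalized count + 1), RV-Cre over control, is plotted against the mean log2(normalized count + 1) of the 2 libraries for the 12112 gene rows past the minimum (grey), with the 10 pathway genes named and dotted lines at a 2-fold difference. *Smad7* and *Lrrc32* (red) lie near a log2 ratio of 2, and the other 8 genes (blue) lie between the dotted lines.

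*Smad7* (chr18:75367529-75395935, plus strand, GRCm38) drew 226 control reads against 823 RV-Cre reads. In CPM these were 16.4 (interval 14.3 to 18.7) and 66.9 (62.4 to 71.6), so the counting intervals of the libraries were far apart. The normalized ratio was 4.11 (3.54 to 4.78) and the log2 ratio 2.03, above 93.8% of all genes past the minimum. SMAD7 binds the activated type I receptor, keeps SMAD2 and SMAD3 away from it and brings ubiquitin ligases to it. Its transcript is itself a well known early target of TGF-β signalling. Within each library, *Smad7* can be set against *Smad3*, a comparison that no scaling between libraries can alter. For each *Smad3* read there were 0.178 *Smad7* reads in control cells and 0.706 after RV-Cre, an odds ratio of 3.96 (3.34 to 4.71). Of all reads on the 10 genes, *Smad7* took 2.53% (2.21% to 2.87%) in control cells and 9.40% (8.79% to 10.03%) after RV-Cre. In RefSeq, though not in GENCODE, a long noncoding RNA gene covers the last bases of *Smad7*. That gene has no row in the tables, and how reads there were assigned was not tested.

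*Lrrc32* (chr7:98489283-98502181, plus strand) drew 56 control reads against 208 RV-Cre reads. Its level was 4.06 CPM (3.07 to 5.27) and 16.9 CPM (14.7 to 19.4). The RV-Cre library was thus the higher one, with intervals that do not overlap. In both libraries *Lrrc32* was among those of the 10 genes with the fewest reads. The normalized ratio was 4.19 (3.11 to 5.74) and the log2 ratio 2.05. GARP is known from activated Treg cells, and *Foxp3*, the defining Treg gene, had 830 and 650 reads, a ratio of 0.884 (0.796 to 0.980). GARP is also known from platelets and endothelial cells. The 5 platelet and megakaryocyte markers summed to 7.54 CPM (control) against 15.4 CPM (RV-Cre), with 0 and 1 of them at 0 reads (*Gp9*). *Pf4*, the platelet chemokine, had 52 and 99 reads. The 6 endothelial and stromal markers summed to 15.7 and 59.2 CPM, most of it *Pecam1* (14.1 and 50.4 CPM). All 3 that passed the minimum were called higher. These were *Pecam1* (195 and 620 reads), whose product T cells also carry, *Kdr*, a VEGF receptor (9 and 39 reads, ratio 4.89), and *Col1a1*, a collagen of stromal cells (10 and 66 reads, ratio 7.45). Of the others, *Cdh5*, the endothelial cadherin, had 2 and 0 reads, *Col3a1*, a collagen, had 0 and 3, and *Pdgfrb*, a receptor of pericytes, had none. The part of these cells in the *Lrrc32* result was not tested, and in bulk RNA a change in the share of cells cannot be told apart from a change in RNA per cell.

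*Tgfb1* (chr7:25687002-25705077, plus strand), the ligand that GARP anchors, drew 18 control reads against 16 RV-Cre reads. These are 1.30 CPM (0.773 to 2.06) and 1.30 CPM (0.743 to 2.11), with intervals that overlap almost wholly. The normalized ratio was 1.00 with an interval from 0.479 to 2.08, so a difference of less than 2-fold was not detectable at this depth. In the control library, 25.5% of the genes with a read had as few reads as *Tgfb1* or fewer. No other annotated gene overlaps *Tgfb1*, and its coding transcripts share 1 annotated 3′ end. How well reads at that end were captured and assigned was not tested, so few reads need not mean few transcripts. The reads of *Lrrc32* for each read of *Tgfb1* went from 3.11 to 13.0, an odds ratio of 4.15 (1.87 to 9.33). The related ligands had similarly few reads. *Tgfb2* had 15 and 17 reads, and *Tgfb3* had 13 and 10 reads and did not pass the minimum.

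**Figure D2:**
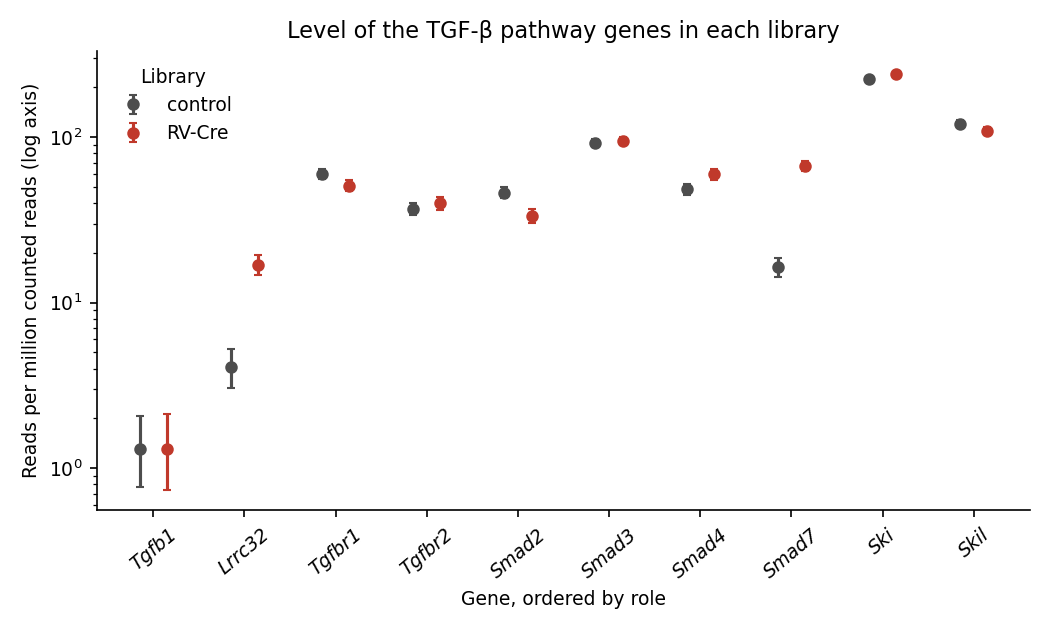
Points show the level of each gene in CPM (log axis) in the control library (grey) and the RV-Cre library (red), with exact 95% Poisson intervals that cover counting error only. *Lrrc32* and *Smad7* are the 2 genes whose points lie far apart, while *Tgfb1* sits near 1.30 in both libraries.

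The receptors differed little between the libraries. *Tgfbr1* (chr4:47353222-47414931, plus strand), the type I receptor kinase that phosphorylates SMADs, drew 822 control reads against 625 RV-Cre reads. This is a normalized ratio of 0.858 (0.772 to 0.953), below 1 by more than counting error and far from 2-fold, though with scaling to *Gapdh* its log2 ratio was 0.20 in place of -0.22. *Tgfbr2* (chr9:116084293-116175360, minus strand), the type II receptor that binds the ligand, had 509 and 491 reads. Its ratio was 1.09 with an interval from 0.960 to 1.23, which includes 1. For each *Tgfbr2* read there were thus 1.61 *Tgfbr1* reads in control cells and 1.27 after RV-Cre, an odds ratio of 0.788 (0.668 to 0.930). A co-receptor was lower. *Tgfbr3*, betaglycan, which presents ligand to TGFBR2, had 407 and 169 reads with a ratio of 0.469 (0.389 to 0.562).

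The receptor-activated SMADs went separate ways. *Smad2* (chr18:76241580-76310963, plus strand) drew 638 control reads against 411 RV-Cre reads, a ratio of 0.727 (0.641 to 0.824) and the lowest of the 10. *Smad3* (chr9:63646767-63757994, minus strand) had 1268 and 1165 reads, a ratio of 1.04 (0.957 to 1.12). SMAD2 and SMAD3 are close relatives that share the receptor and SMAD4, but only the common form of SMAD3 binds DNA directly. *Smad3* reads for each *Smad2* read went from 1.99 to 2.83, an odds ratio of 1.43 (1.23 to 1.66). *Smad4* (chr18:73639009-73703780, minus strand), the partner common to both, had 670 and 732 reads, a ratio of 1.23 (1.11 to 1.37). Of these 3 genes, *Smad2* was lower and *Smad4* was higher beyond counting error, and neither reached 2-fold. With scaling to *Gapdh* the log2 ratio of *Smad2* was -0.04. It was below 0 in all 8 settings of scaling and pseudocount, so the size of its lower level depends on the scaling.

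The corepressors drew the most reads of the set. *Ski* (chr4:155154075-155222592, minus strand) drew 3084 control reads against 2946 RV-Cre reads, or 223 CPM (216 to 232) and 239 CPM (231 to 248). Its ratio was 1.08 (1.02 to 1.13). *Skil* (chr3:31095058-31122577, plus strand) had 1655 and 1341 reads, a ratio of 0.914 (0.850 to 0.983) that lay above 1 with scaling to *Gapdh* (log2 ratio 0.29). SKIL is, like SMAD7, a negative regulator whose gene SMADs are known to induce, and here its log2 ratio was -0.13 where that of *Smad7* was 2.03. The cause of this difference was not tested. *Skil* reads for each *Ski* read went from 0.537 to 0.455, an odds ratio of 0.848 (0.776 to 0.927).

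**Figure D3:**
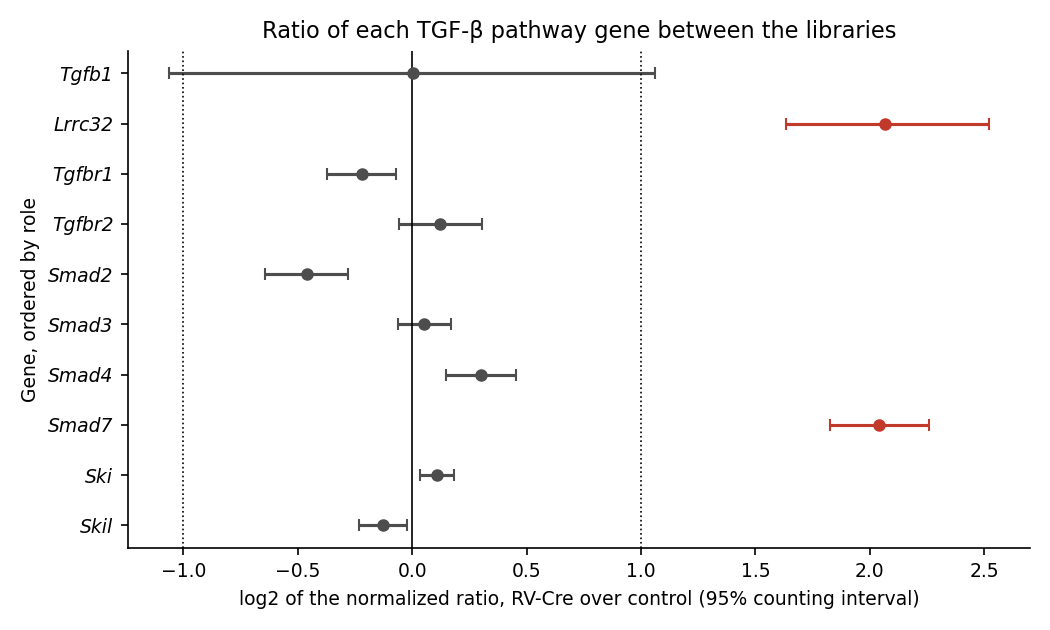
The log2 of the normalized ratio, RV-Cre over control, is shown for each gene with its exact 95% counting interval, with dotted lines at a 2-fold difference. The intervals of *Lrrc32* and *Smad7* lie wholly beyond 2-fold, those of *Tgfb1*, *Tgfbr2* and *Smad3* include a ratio of 1, and the other 5 exclude 1 but stay within 2-fold.

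Ordered by CPM, the control library ran *Ski*, *Skil*, *Smad3*, *Tgfbr1*, *Smad4*, *Smad2*, *Tgfbr2*, *Smad7*, *Lrrc32* and *Tgfb1*. Neighbours in this order differed beyond counting error except for *Smad4* and *Smad2*, with a ratio of 1.05 (0.941 to 1.17). Different genes may be captured unequally at their 3′ ends, which was not tested, so this is an order of reads. In the RV-Cre library *Smad7* moved from place 8 to place 4, above *Smad4*, *Tgfbr1*, *Tgfbr2* and *Smad2*, although its lead over *Smad4* was small (1.12, interval 1.02 to 1.24). *Smad2* moved from place 6 to place 8. *Ski*, *Skil* and *Smad3* led and *Lrrc32* and *Tgfb1* closed the order in both libraries.

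Around these 10 genes, 84 other genes of the pathway were followed in lists by role, of which 67 passed the minimum. Of these 67, 2 were called higher and 6 lower, and 59 lay within 2-fold, and their median log2 ratio was 0.04. Over all genes past the minimum, 14.2% were higher and 12.3% lower, and among the more abundant genes 3.74% and 7.6%. The counts of the 67 genes, many of them abundant, lie closer to the latter shares. With scaling to *Gapdh* the balance turned, with 14 of these pathway genes called higher and 1 lower. Over all genes that scaling gave 2959 higher and 778 lower of 12167, so the turn was shared by all genes.

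Among 11 genes of other ligands, latency and activation past the minimum, the 2 higher ones were *Itgb3*, an integrin subunit of a receptor for latent TGF-β, with 21 and 180 reads (log2 ratio 3.21), and *Ltbp1*, a latent TGF-β binding protein, with 4 and 32 reads (ratio 9.03, 3.20 to 35.1). *Bmp1*, a protease, was the 1 lower gene with 45 and 16 reads (ratio 0.401, 0.212 to 0.724). Over all genes past the minimum, 14.2% were called higher and 12.3% lower. *Furin*, the protease that cleaves the TGF-β precursor, was abundant, with 10201 and 5252 reads and a ratio of 0.581 (0.562 to 0.601). *Nrros*, which anchors latent TGF-β on myeloid cells as GARP does on Treg cells, had 344 and 499 reads, a ratio of 1.64, and is named here with its values known.

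Of 8 other receptors past the minimum, 3 were called lower and 0 higher (12.3% and 14.2% over all genes), with a median log2 ratio of -0.67. These calls depend on the scaling, since with *Gapdh* only 1 gene of all the role lists was called lower. The 3 lower genes were *Tgfbr3*, given above, *Eng* (endoglin, a co-receptor named here after its values were seen), with 571 and 241 reads and a ratio of 0.476, and *Bmpr1a*, a BMP receptor, with 17 and 5 reads and a ratio of 0.332 whose interval runs from 0.0957 to 0.937. *Acvrl1*, a type I receptor, was the 1 gene of these 8 above a ratio of 1, with 50 and 58 reads.

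The other SMADs past the minimum all lay within 2-fold: *Smad1* (log2 ratio -0.33) and *Smad5* (0.24), which carry BMP signals, and the adaptor *Hgs* (0.29). *Smad6*, the second inhibitory SMAD, had 10 and 6 reads and did not pass the minimum, with a ratio of 0.677 whose interval, 0.202 to 2.06, lies below that of *Smad7*. It too is named with its values known. By the rule for calls, which adds 1 to each count, all 18 genes of receptor and SMAD turnover past the minimum lay within 2-fold. Of all genes past the minimum 26.5% were called, and of the more abundant ones 11.3%. The 18 genes had a median log2 ratio of 0.07. They ran from *Bambi*, a decoy receptor (19 and 8 reads, log2 ratio -0.99), and *Strap*, an adaptor of SMAD7 (-0.71), to the ubiquitin ligase gene *Wwp2* (0.69) and the deubiquitinase gene *Usp11* (0.92). Without the added 1, the ratio of *Bambi* was 0.475 (0.180 to 1.14).

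Of 15 nuclear cofactors, 2 were called lower and 0 higher, beside 12.3% and 14.2% of all genes. All 15 lay in the more abundant range, where 7.6% were called lower and 3.74% higher. *Tfdp1*, the partner of E2F factors, had 1585 and 439 reads, a ratio of 0.313, and *E2f4*, which joins SMAD3 in repression of target genes, had 1431 and 518 reads, a ratio of 0.408. The acetyltransferase gene *Kat2b* (log2 ratio 0.81) was among the highest of this list, short of 2-fold. All 12 genes of the SMAD-independent arm lay within 2-fold, from *Ppp2r2a*, a phosphatase subunit (-0.98), and *Traf6*, a ubiquitin ligase upstream of TAK1 (-0.66), to *Pard6a*, a polarity protein (0.35), and *Shc1*, an adaptor to RAS (0.36). Beside these 12 stand calls for 26.5% of all genes past the minimum and 11.3% of the more abundant ones.

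**Figure D4:**
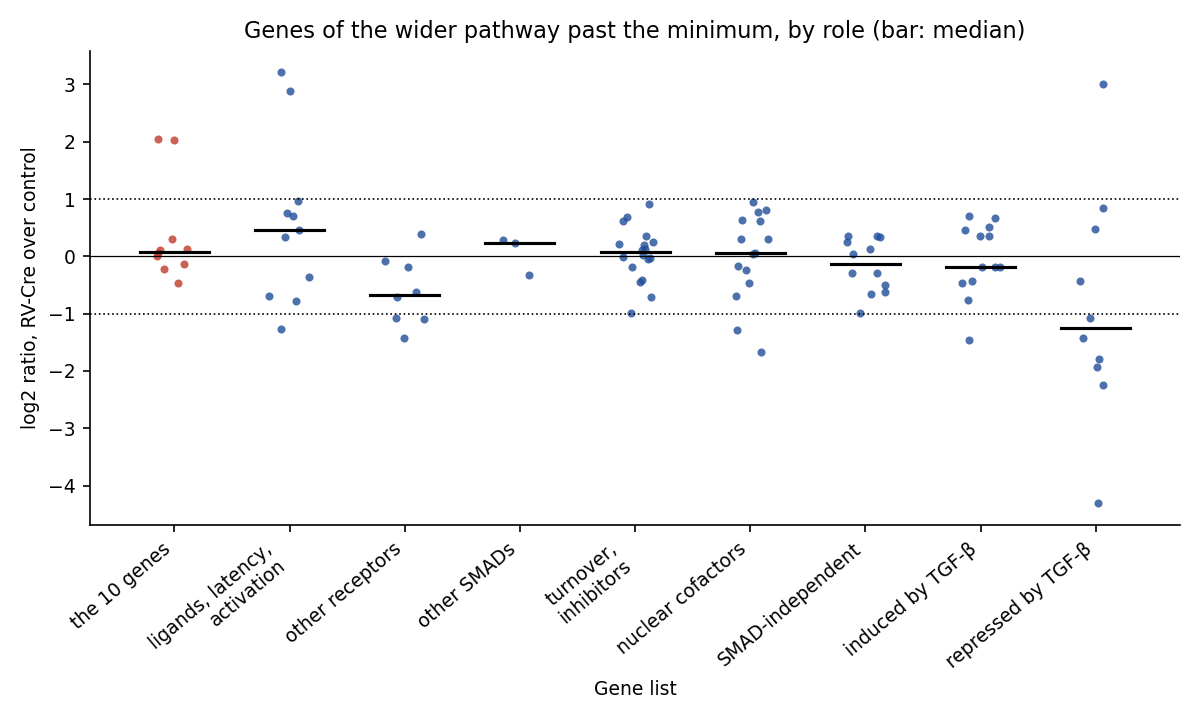
Each point is the log2 ratio, RV-Cre over control, of 1 gene past the minimum in the list named below it, and bars mark list medians, with dotted lines at a 2-fold difference. Points of the pathway's own parts mostly lie between the dotted lines, whereas 6 of the 10 genes that TGF-β represses lie below the lower line. The lists were chosen with earlier results of these data known.

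Genes that TGF-β is known to induce or repress in T cells were set beside *Smad7*. Of 13 induced genes past the minimum, 0 were called higher and 1 lower. Over all genes these shares were 14.2% and 12.3%, and among the more abundant genes 3.74% and 7.6%. The median of the induced genes was -0.18 on the log2 scale (0.24 with scaling to *Gapdh*). *Pmepa1*, a SMAD target that restrains the pathway and also stands in the turnover list, is named with its values known and was among the more abundant genes with 13732 and 10643 reads and a ratio of 0.875 (0.853 to 0.897). *Spsb1* (log2 ratio 0.70), which limits the type II receptor, and *Tgfbi* (0.66), a matrix protein, were the highest. *Itgae*, the CD103 integrin chain, was among the lowest and had 41 and 21 reads and a ratio of 0.578 (0.324 to 1.00). *Smad7*, itself a known target, was not in this list.

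Of 10 repressed genes past the minimum, 6 were called lower and 1 higher, where 12.3% and 14.2% of all genes were, and their median was -1.25 on the log2 scale. The list was chosen with earlier results of these data known, so this count is not independent evidence about genes that TGF-β represses. With scaling to *Gapdh*, which gave 778 lower and 2959 higher of 12167 genes, 5 of the list were called lower and 3 higher. The lowest were *Gzmb*, granzyme B, with 198 and 8 reads (ratio 0.0456, 0.0194 to 0.0916), and *Myc*, the growth regulator, with 1678 and 315 reads (ratio 0.212, 0.187 to 0.239). *Gata3*, the Th2 factor, was higher with 114 and 814 reads (ratio 8.06), and *Eomes*, a T-box factor of cytotoxic cells, had 14 and 23 reads (ratio 1.85, 0.914 to 3.90). These genes answer to many signals besides TGF-β. Of the genes named from the role and target lists, *Acvrl1*, *Bmpr1a*, *Eng*, *Eomes*, *Foxp3*, *Furin*, *Gata3*, *Itgae*, *Kat2b*, *Ltbp1*, *Smad5*, *Spsb1*, *Tgfb2*, *Tgfb3*, *Tgfbr3* and *Wwp2* overlap another annotated gene, as do the cell markers *Cdh5*, *Col3a1*, *Csf1r* and *Klrb1c*, and since the strand setting is not given in the sources used here, part of their reads is uncertain.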

How the data were processed

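RNA of GFP+ cells (500 ng per library) was made into QuantSeq 3′ libraries. The authors deposited raw read counts per gene symbol, with no normalization. The submitters' processing notes name bcl2fastq 2.20.0.422, Bowtie2, bedtools and the build mm10, and give no annotation, strand setting or filter. No row was left out of the library totals, and 79 rows that share a symbol were left out of gene lists. TMM scaling (edgeR 4.0.16 in R 4.3.3) gave size factors of 1.06 (control) and 0.941 (RV-Cre). Values were compared as log2(normalized count + 1), and a gene needed a log2 value of 4 (15 normalized reads) in either library and a ratio of 2 to be called. Exact Clopper-Pearson, Poisson and conditional odds ratio intervals at 95% came from scipy 1.17.1. No molecular identifiers are mentioned in the sources used here, so reads may not be independent molecules and intervals cover counting error only. The procedure was tested on simulated data drawn with counting error only, which cannot speak to variation between libraries of a condition. Gene positions are those of GENCODE M21 (GRCm38, the assembly of mm10), and *Ccn2* was found under its older symbol *Ctgf*, with 0 and 1 reads. Named genes are the 10 genes, *Ptk2*, *Foxp3*, the other TGF-β isoforms with *Tgfbr3*, defining markers, and the 2 highest and 2 lowest genes of each list, of which some are not reported here. *Eng*, *Nrros*, *Smad6*, *Pmepa1* and the non-defining markers were added with their values known. The genes and lists were chosen with earlier results of these data known. Genes of like pattern were not sought, since 2 libraries give 1 ratio per gene. Alternatives were library totals with and without *Rn45s*, DESeq2 1.42.0 size factors, median centring, scaling to *Gapdh*, other pseudocounts, minimums and fold thresholds, and 99% intervals.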

Additional observations from a re-analysis of the deposited data

How the results depend on the processing

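No paired analysis was possible because only 1 control and 1 RV-Cre library were analysed here. Under all 11 alternatives of scaling, pseudocount, minimum and fold threshold, 2 of the 10 genes were higher and 0 lower. Over the scalings and pseudocounts, *Smad7* ranged from 1.99 to 2.45 and *Lrrc32* from 1.88 to 2.46 in log2 ratio. Scaling to *Gapdh*, a single gene with 956 and 634 reads and a log2 ratio of -0.42, moved the median of all genes by 0.44. With it the median of the 10 genes was 0.50, *Tgfbr1* (0.20) and *Skil* (0.29) lay above 0 and *Smad2* was at -0.04. The signs of *Tgfbr1* and *Skil* therefore depend on the scaling, though each lay above 0 in only 1 of 8 settings, that of *Gapdh*. Among the 84 other pathway genes, the count of higher genes was 5 with library totals without *Rn45s*, 14 with *Gapdh*, 4 with no minimum, 1 with a log2 minimum of 6 and 13 at a fold threshold of 1.5. The count of lower genes was 1 with *Gapdh*, 16 at 1.5-fold and 1 at 3-fold. For the genes that TGF-β induces, 2 were higher with *Gapdh*, 1 with no minimum and 2 at 1.5-fold. The lower ones were 2 with no minimum, 0 at a minimum of 6, 2 at 1.5-fold and 0 at 3-fold. Their median was 0.24 with *Gapdh* and 0.084 at a minimum of 6. For the repressed genes, the higher ones were 2 without *Rn45s*, 3 with *Gapdh*, 3 with no minimum and 2 at 1.5-fold, and the median was -0.83 with *Gapdh*. Over all genes with a symbol of their own, higher and lower genes were 1937 and 1279 of 12133 without *Rn45s*. They were 2959 and 778 of 12167 with *Gapdh*. With no minimum they were 3261 and 2438 of 15755, and at a minimum of 6, 734 and 1067 of 9678. At 1.5-fold they were 2846 and 2770 of 12098, and at 3-fold 1007 and 668. Fewer or more genes pass at another minimum or threshold by construction, and the cause of the other shifts was not tested. All 5 odds ratios between genes excluded 1 with 99% intervals as well. Depth limits genes with few reads, among them *Tgfb1*, *Tgfb3*, *Smad6*, *Bmpr1a* and *Ltbp1*.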
